A study of Mus musculus with 15 samples.

Results

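The 3 libraries of activated mouse B cells whose titles end in the letter C were compared with the 6 activated libraries whose titles end in A or B, out of 15 RNA sequencing libraries in the series. The 9 activated libraries, titled Nact D5, are 3 with CD40, 3 with CpG and 3 with LPS in the title, and each of these stimuli appears once with each letter. A gene was counted for C when it differed from A and from B in the same direction, with the titled stimulus held as a block. The labels do not say what the letters stand for, so animal, culture, preparation or anything else shared by the libraries of 1 letter cannot be told apart.

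All cells came from spleens of wild-type (WT) male mice, 3 months old, immunised with sheep red blood cells (SRBC) for 9 days. Naive B cells were sorted and kept for 5 days in a KO-DMEM-based medium made for ES cells. Agents named in the protocol are mIL4 (80 ng/ml), anti-CD40 (5 µg/ml), CpG (2 µM) and LPS (25 µg/ml), renewed with the medium on day 3. Whether IL-4 also went with CpG and LPS cannot be read from the labels. Naive B cells and GC (germinal centre) B cells of the same immunised mice, 3 libraries each and taken as uncultured, serve here only as reference levels. The mice are described as individual animals, but no label ties a library to an animal, so the p-values measure the spread between these libraries, which may be technical. Letter and stimulus are used as the titles give them. The libraries grouped by letter and not by titled stimulus, and whether letter and stimulus were exchanged in the titles was not tested. An exchange would change what every value of C against A and B means.

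Activated B cells can divide, switch the class of their heavy chain and turn into plasmablasts, cells that make and secrete antibody. The transcription factor Blimp-1, product of Prdm1, drives that last step and represses B cell identity genes such as Pax5, Bcl6 and Ciita, while the endoplasmic reticulum is enlarged through the unfolded protein response. Type I interferon acts on B cells through a receptor that activates a complex of transcription factors with IRF9 in it, and the targets share a short DNA element in their promoters, the interferon-stimulated response element (ISRE).

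The 9 libraries held 25397624 to 36272197 counts, and 15727 genes passed the filter on low counts. They separated by letter rather than by titled stimulus. Letter accounted for 54.16% of the variance in log2 CPM (counts normalised to library size by the trimmed mean of M values) and titled stimulus for 15.97%. The contrast of C with A and B together took 28.96%. Any split of the 9 libraries takes some share, and no reference level was set for these. The 15.97% therefore does not by itself show a difference between stimuli. On the first principal component the C libraries lay at 94.41 (CD40), 45.56 (CpG) and 36.23 (LPS), and all A and B libraries lay below 0. The C library titled CD40 stood apart from the other two C libraries, and it had 16314 genes detected against 18409 to 19320 in the other 8. Counts without it are given for the lists on which its removal changed them most. Libraries of 1 letter were counted as separate samples, as titled. They differed from one another by more than counting noise, but libraries from 1 animal or culture can do so too. That difference therefore does not show that the samples are independent.

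**Figure D1:**
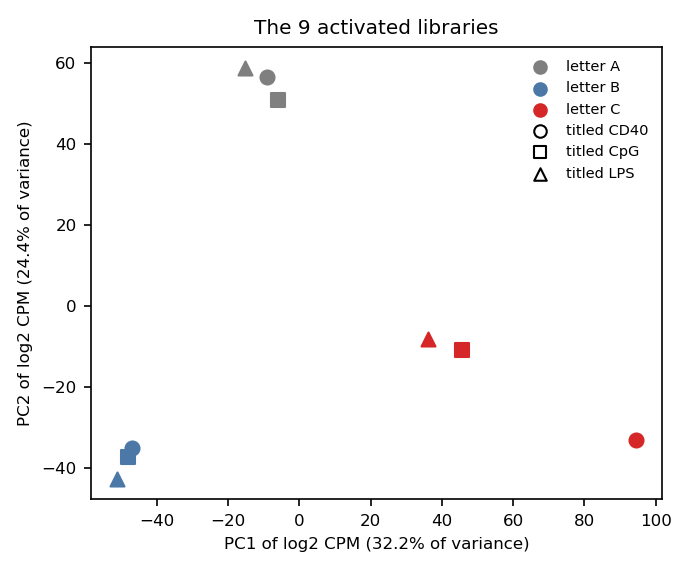
Position of the 9 activated libraries along principal components 1 and 2 of log2 CPM for the genes tested, coloured by letter and shaped by titled stimulus. The 3 C libraries sit to the right, from 36.23 to 94.41 on the horizontal axis, and the library titled CD40 lies farthest from the rest.

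In C, 1026 genes were higher than in A and in B (6.52% of genes tested) and 881 were lower than in both (5.6%), at an adjusted p under 0.05 in each of the 2 comparisons (edgeR, quasi-likelihood, two-sided). Of these, 351 were at least 2-fold higher in both comparisons (2.23%) and 115 at least 2-fold lower (0.731%). The median log2 fold change against the mean of A and B was 0.66 for the higher genes, -0.56 for the lower genes and -0.02 for all genes tested. For 967 of the 1026 higher genes the C libraries all lay above the 6 others, and for 769 of the 881 lower genes they all lay below. Over all genes tested, 9.29% lay above and 8.06% below in that way. The higher genes included 172 of 214 immunoglobulin V genes and V pseudogenes tested, and 811 of 12178 protein-coding genes.

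Letters A and B were not alike either, so C was not the only letter with calls of its own. B was higher than both other letters in 1508 genes (9.59%) and lower in 1578 (10%), and A was higher in 880 (5.6%) and lower in 665 (4.23%). Taken singly, C against A gave 1806 genes higher in C (11.5%) and 1878 lower (11.9%), and C against B gave 2757 higher (17.5%) and 2721 lower (17.3%). Against the mean of A and B, 2303 genes were higher in C (14.6%) and 2355 lower (15%). Genes at the edge of the call show how small a difference it can carry. Just inside were Junb (log2 fold change -0.16 against A and -0.81 against B, larger adjusted p 0.04997) and Crbn (-0.26 and -0.39, 0.04969), and just outside were Nol11 (0.25 and 0.27, 0.05016) and Tnc (4.95 and 1.62, 0.05018). When the naive and GC libraries shared the fit, its scaling and its estimate of spread, with 17144 genes tested, 186 genes were called higher and 45 lower. The naive libraries ranged from 11523 to 18866 genes detected. Without the C library titled CD40, 853 were higher and 716 lower.

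**Figure D2:**
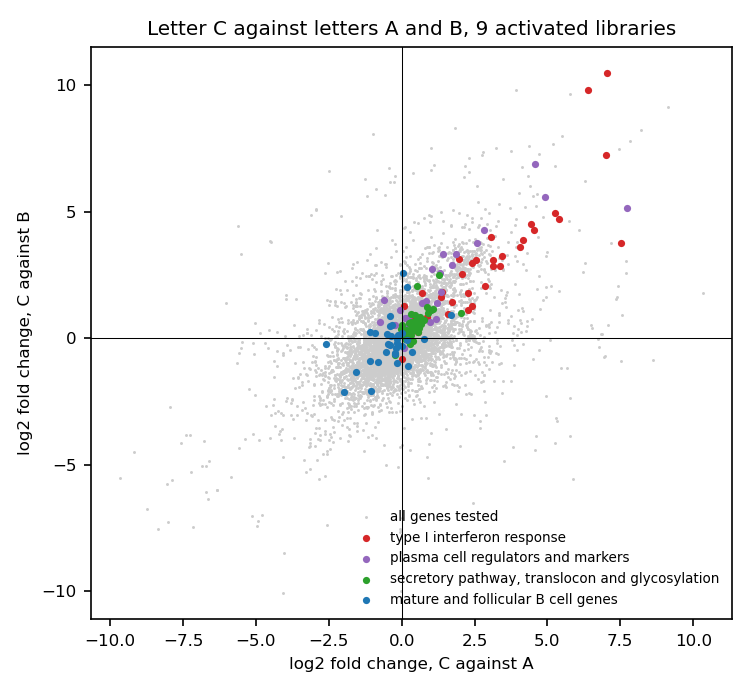
Log2 fold change of C against A (horizontal) and of C against B (vertical) for each of the 15727 genes tested, with members of 4 gene lists in colour. Interferon response and plasma cell genes lie mostly in the upper right, where C is higher than both letters, secretory pathway genes just above the origin, and follicular B cell genes mostly at or below 0.

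Plasma cell genes were higher in C as a group. Of 27 plasma cell regulators and markers tested (30 on the list), 17 rose in C against both letters (62.96%) and none fell. Over all genes tested 6.52% rose and 5.6% fell, and list counts below are to be read against these shares. The median log2 fold change of the list was 1.05 against the mean of A and B. Among the 24 whose counts in A or B alone pass the filter on low counts, 15 rose. In the fit with all 15 libraries 7 were called, and without the C library titled CD40, 15 were. The list is not neutral between the other letters, since 19 members were higher in A than in B and 2 lower. Over all 15727 genes tested 2605 were higher in A than in B and 2288 lower. In bulk libraries more cells of a type and more RNA per cell cannot be told apart. The B cell marker Cd79a was high in C, at 991 ± 23.3 CPM (mean ± SD, n = 3).

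Prdm1 (ENSMUSG00000038151, chr10:44437177-44528501, minus strand, GRCm38) read 10.7, 11.5 and 8.25 CPM in the A libraries, 2.805, 3.37 and 4.71 in the B libraries and 78.1, 77.8 and 57.7 in the C libraries, in the order CD40, CpG and LPS that is kept below. All C libraries lay several fold above every A and B library. The log2 fold change was 2.81 ± 0.16 (SE) against A and 4.29 ± 0.18 against B, with adjusted p of 1.87e-12 and 5.40e-15. With all 15 libraries in the fit, the adjusted p against A was 0.156 and the call was lost. Jchain (chr5:88519809-88527891), whose product joins the units of polymeric IgM and IgA, read 85.9, 113 and 68.8 CPM in the A libraries, 16.8, 18.8 and 17.6 in the B libraries and 2122, 2823 and 1527 in the C libraries. Its lowest C library held more than 10 times the highest A library, and the log2 fold changes were 4.59 ± 0.11 and 6.89 ± 0.12 (adjusted p 1.56e-13 and 4.59e-15). Naive cells held 13.5 ± 12.4 CPM and GC cells 1451 ± 166 (mean ± SD, n = 3).

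Other members of the list passed the test as well. Fkbp11, a peptidyl-prolyl isomerase of the endoplasmic reticulum, read 5.72, 4.44 and 5.76 CPM in the A libraries, 1.45, 2.71 and 2.898 in the B libraries and 29.4, 41.1 and 25.8 in the C libraries, log2 fold changes 2.57 and 3.78 against A and B. Derl3, a factor of endoplasmic reticulum-associated degradation, read 36.8, 38.2 and 32.9 CPM in the A libraries, 14.4, 16.4 and 16.9 in the B libraries and 133, 131 and 93.6 in the C libraries, log2 fold changes 1.72 and 2.89. The groups did not overlap for either gene. Ell2, an elongation factor that favours the secretory form of heavy chain mRNA, rose from means of 134 ± 10.2 CPM in A and 86.8 ± 5.66 in B to 239 ± 18.2 in C. Mzb1, a chaperone of IgM assembly, was at 1087 ± 62.004, 893 ± 40.4 and 1604 ± 129 CPM. Smaller differences were found for Sdc1 (syndecan-1, CD138), with 8.49, 6.76 and 7.599 CPM in the A libraries, 8.26, 10.9 and 11.4 in the B libraries and 16.9, 19.6 and 14.9 in the C libraries, and for Tnfrsf13b (TACI, a receptor for BAFF and APRIL), with means of 130.5, 164 and 258 CPM in A, B and C. Both passed the test, and Sdc1 lost its call with all 15 libraries (adjusted p 0.447 against B), as did Tnfrsf13b.

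Several regulators of the same programme did not pass the test against A. Xbp1, the transcription factor of the unfolded protein response that plasma cells need, read 1246, 1345 and 1369.97 CPM in the A libraries, 816, 845 and 807 in the B libraries and 1398, 1506 and 1335 in the C libraries. C exceeded B (log2 0.78 ± 0.06, adjusted p 2.00e-11) but did not pass against A (log2 0.10 ± 0.05, adjusted p 0.229). Irf4 was at 369, 377 and 353 CPM in the A libraries, 304, 338 and 293 in the B libraries and 432, 444 and 341 in the C libraries, with adjusted p of 0.107 against A and 2.46e-05 against B. Pou2af1 was lower in C than in A and higher than in B (log2 -0.22 and 0.54), and so was Slamf7 (-0.75 and 0.64). Tnfrsf17 (BCMA) had 22 counts over the C libraries and 0 over A and B, too few to be tested.

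**Figure D3:**
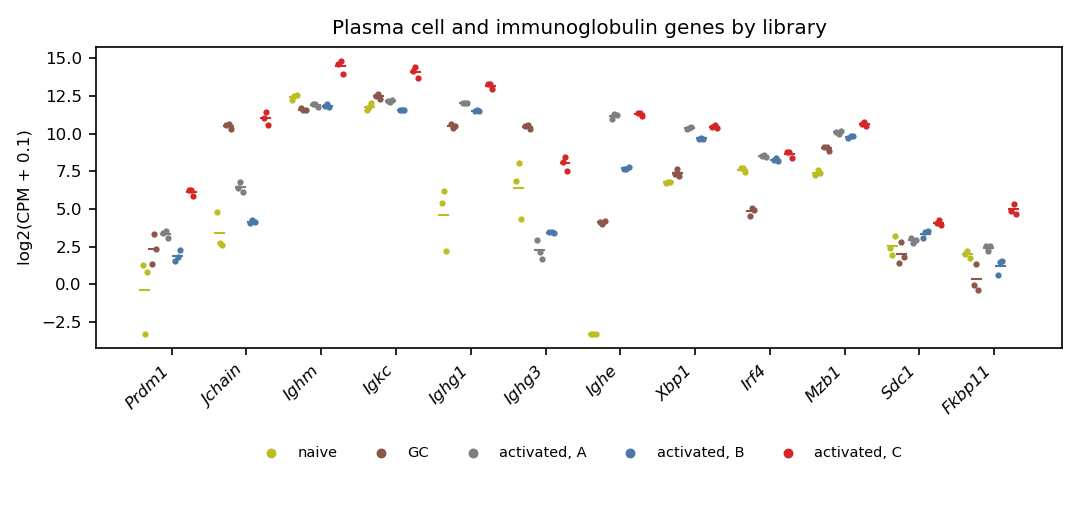
CPM on a log2 scale (0.1 added) of 12 plasma cell and immunoglobulin genes in each of the 15 libraries, points for libraries and bars for the means of the 3 libraries of a group. Red C points lie above grey A and blue B points for Prdm1, Jchain, Ighm, Igkc, Ighg1, Ighg3, Mzb1, Sdc1 and Fkbp11, while A and C lie together for Ighe and Xbp1.

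Immunoglobulin transcripts made up 7.188%, 8.002% and 5.059% of the counts in the C libraries, against 1.85% to 1.93% in A and 1.16% to 1.20% in B. The mean share was 6.75% ± 1.52 in C, 1.89% ± 0.0378 in A and 1.18% ± 0.0201 in B (SD, n = 3). The difference of 5.21 percentage points had a two-sided exact permutation p of 0.0741, the smallest that exchanging letters within a titled stimulus allows, and of 0.0238 when letters were exchanged without regard to stimulus. Of 12 constant region genes tested, 8 rose in C (66.67%, against 6.52% of all genes) and 1, Ighd, fell. Their median log2 fold change was 2.28.

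Ighm (chr12:113418558-113422730, minus strand), the constant region of IgM, read 4017, 4052 and 3528 CPM in the A libraries, 3637, 4007 and 3438 in the B libraries and 25518, 29511 and 16046 in the C libraries. The C libraries lay above the others with no overlap, and the log2 fold changes were 2.58 ± 0.14 and 2.65 ± 0.14 (adjusted p 4.25e-06 and 2.31e-06). Its 2 forms, membrane and secreted, are not separated by counts per gene. Igkc, the kappa light chain, read 4681, 4472 and 4801 CPM in the A libraries, 3099, 3045 and 3109 in the B libraries and 18729, 22242 and 13275 in the C libraries, log2 fold changes 1.94 and 2.53. Both genes passed the test with all 15 libraries as well.

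Switched classes differed from one another. Ighg3, the constant region of IgG3, read 7.598, 4.41 and 3.05 CPM in the A libraries, 10.8, 10.9 and 10.4 in the B libraries and 280.4, 357 and 183 in the C libraries, and rose by 5.75 and 4.64 on the log2 scale against A and B. Ighg1 was abundant in every activated library and read 4275, 4213 and 4167 CPM in the A libraries, 2968, 3029 and 2941 in the B libraries and 10253, 10104 and 7994 in the C libraries, log2 fold changes 1.16 and 1.66. The Ighg1 call was lost with all 15 libraries in the fit (adjusted p 0.607 against A). Igha rose as well (23.7, 35.5 and 28.8 CPM in the A libraries, 36.2, 41.1 and 55.1 in the B libraries and 290.1, 214 and 171 in the C libraries), as did Ighg2c (1.999, 1.78 and 0.622 CPM in the A libraries, 6.43, 7.74 and 5.84 in the B libraries and 32.7, 27.5 and 12.4 in the C libraries), which was not called with all 15 libraries. Ighg2b in C differed from A (log2 4.08 ± 0.13) and did not pass against B (0.23 ± 0.11, adjusted p 0.098). Ighe, the IgE constant region, read 2048, 2490.3 and 2371 CPM in the A libraries, 202, 202 and 225 in the B libraries and 2645, 2718 and 2354 in the C libraries. It passed against B (adjusted p 3.08e-21) and not against A (log2 0.16 ± 0.07, adjusted p 0.0791). Ighd, which naive cells carry at 3560.3 ± 668 CPM, fell in C, with 198, 195 and 167 CPM in the A libraries, 209, 204 and 197 in the B libraries and 98.8, 122 and 95.9 in the C libraries. The Ighg genes resemble one another in sequence, and how reads that fit several genes were counted is not given in the sources used here, so the split between them is uncertain.

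The rise covered V genes broadly. Of 191 V genes tested, 161 rose in C and none fell, against 6.52% and 5.6% of all genes tested. Their median log2 fold change was 2.58. The most abundant V gene took 4.33% to 6.25% of V counts in a library, and the effective number of V genes (the inverse of the summed squared shares) was 49.8 to 57.9 over the 9 libraries. Largest among the V genes by the naming rule were the V pseudogenes Ighv12-1, with 0.923, 0.572 and 1.11 CPM in the A libraries, 0.473, 0.367 and 0 in the B libraries and 22.6, 19.1 and 14.5 in the C libraries, and Ighv12-2, with 0.615, 1.18 and 0.95 CPM in the A libraries, 0.819, 0.477 and 0.241 in the B libraries and 13.1, 14.8 and 13.3 in the C libraries. The gene Ighv1-55 came next, with 1.05, 0.706 and 0.262 CPM in the A libraries, 0.063, 0.807 and 0 in the B libraries and 7.63, 10.4 and 6.69 in the C libraries. Reads of near-identical V genes may be assigned to either, so values of single V genes are uncertain.

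Genes of protein folding in the endoplasmic reticulum rose together. Of 34 unfolded protein response and chaperone genes tested, 25 rose in C (73.53%, against 6.52% of all genes) and 1, Ppp1r15a, fell. Their median log2 fold change was 0.89. The fit with all 15 libraries called 15 higher. Between the other letters, 26 of the 34 were higher in A than in B and 2 lower. Hspa5 (BiP, the main chaperone of the compartment) read 994, 1000.4 and 1000.3 CPM in the A libraries, 646, 651 and 669.98 in the B libraries and 1596, 1645 and 1451 in the C libraries, log2 fold changes 0.65 ± 0.06 and 1.25 ± 0.06. Hsp90b1 (GRP94) read 729.7, 739 and 713 CPM in the A libraries, 504, 493 and 554 in the B libraries and 1666, 1698 and 1398 in the C libraries, log2 1.12 and 1.62. Creld2, an endoplasmic reticulum protein induced by stress, read 139, 156 and 153 CPM in the A libraries, 69.8, 68.2 and 62.99 in the B libraries and 341, 297 and 245 in the C libraries, log2 0.97 and 2.13. The C libraries lay above all others for each of these 3 genes. Ern1, the sensor IRE1α, rose to 31.1 ± 6.94 CPM from 13.4 ± 0.289 in A and 8.35 ± 1.56 in B. Some genes of this list were not called higher. Eif2ak3 (PERK) did not pass against A (log2 -0.01 ± 0.09), Atf4 was 299.5, 325 and 288 CPM in A, B and C, Trib3 was lower than in A only (log2 -0.62 and -0.24), and Ppp1r15a fell by 0.34 against A and by 0.41 against B on the log2 scale.

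Promoters of this group often held the endoplasmic reticulum stress element (ERSE), searched as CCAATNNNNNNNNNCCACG on both strands from 250 bases before to 50 after the start in RefSeq promoters of GRCm38.p6. Of the 25 genes called higher, 21 had a promoter in that table and 9 of them a match (42.9%), against 0.185% of tested genes with a promoter and 0.137% of all genes in the table. Over all genes called higher in C, with or without a place on the list, it was 9 of 652 promoters (1.38%). The list was drawn up by function, so its share describes the list and is no test of C. A match describes the sequence and is not a measured binding site. Sites are shown for 5 of these genes, 5′ to 3′ on the gene's strand, with the match in capitals.
Hspa5: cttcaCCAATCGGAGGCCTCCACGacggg
Hsp90b1: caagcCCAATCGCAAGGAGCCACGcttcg
Pdia6: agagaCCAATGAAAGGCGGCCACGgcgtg
Creld2: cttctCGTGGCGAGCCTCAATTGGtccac
Derl3: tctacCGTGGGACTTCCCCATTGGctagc
The first 3 carry the element in the forward direction and the last 2 as its reverse complement. They lie at chr2:34772020-34772048 on the plus strand (Hspa5, match 65 bases before the start), chr10:86705633-86705661 on the minus strand (Hsp90b1, 212 bases before, with a second match 107 bases before), chr12:17266486-17266514, plus (Pdia6, 98 bases before), chr15:88819515-88819543, plus (Creld2, 126 bases before) and chr10:75893237-75893265, plus (Derl3, 156 bases before). Another element of the same response, TGACGTGG, was in 2 of the 21 promoters (9.52%), against 1.05% of tested genes.

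The wider secretory pathway moved by smaller steps. Of 54 genes for translocation, glycosylation and vesicle transport, 41 rose in C (75.93%, against 6.52% of all genes). Only 1, Golgb1 (giantin, a Golgi tether), fell, and the median log2 fold change was 0.48. Between the other letters, 14 of the 54 were higher in A than in B and 6 lower. Sec24d, a coat protein of vesicles leaving the endoplasmic reticulum, changed most among those named by rule and read 24.3, 28.7 and 19.8 CPM in the A libraries, 9.77, 12.8 and 8.69 in the B libraries and 70.4, 58.1 and 47.3 in the C libraries, log2 1.28 and 2.50. Lman1 (ERGIC-53, a cargo receptor) read 90.9, 98.1 and 81.2 CPM in the A libraries, 86.7, 87.8 and 83.3 in the B libraries and 208, 203 and 163 in the C libraries. Ssr2, of the translocon-associated complex, read 129.7, 136 and 138 CPM in the A libraries, 121, 127 and 125 in the B libraries and 310.00, 271 and 234 in the C libraries. C was above A and B in every library for each. With all 15 libraries in the fit 10 of the 54 were called, and without the C library titled CD40, 39 higher and none lower.

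Genes of the type I interferon response were higher in C in most members. Of 35 genes tested (36 on the list), 31 rose in C against both letters (88.57%, against 6.52% of all genes) and none fell. Of these, 24 rose by at least 2-fold, against 2.23% of all genes. The median log2 fold change of the list was 2.56. For 33 of the 35 every C library lay above all A and B libraries, against 9.29% of all genes tested. Of the 35, 7 passed the filter on low counts only because of C, and the 33 were not counted without them. Among the other 28, 26 were called higher, with a median of 1.94, below the 2.28 of the immunoglobulin constant genes. The other letters split evenly, with 8 members higher in A than in B and 7 lower. With all 15 libraries 19 were called, and without the C library titled CD40, 28.

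Oasl1 (ENSMUSG00000041827, chr5:114923240-114937915, plus strand), a 2′-5′-oligoadenylate synthetase-like protein, read 0.123, 0.336 and 0.655 CPM in the A libraries, 0.189, 0.514 and 0.241 in the B libraries and 60.5, 38.1 and 46.2 in the C libraries. No A or B library reached 1 CPM and no C library was below 38, and the log2 fold changes were 7.01 ± 0.32 and 7.24 ± 0.33 (adjusted p 3.03e-12 and 2.40e-12). Rtp4, a receptor transporter induced by interferon, read 0, 0.135 and 0 CPM in the A libraries, 0 in all 3 B libraries and 4.78, 6.09 and 6.44 in the C libraries. It was at least 161-fold higher in C than in B, against a floor of 3 counts over the B libraries. Rtp4 passed the filter on low counts only because of C. Isg15 (chr4:156199424-156200818, minus strand), a ubiquitin-like modifier, read 2.15, 1.08 and 1.18 CPM in the A libraries, 1.58, 1.76 and 1.93 in the B libraries and 26.4, 22.96 and 28.5 in the C libraries, log2 4.15 ± 0.24 and 3.88 ± 0.24 (adjusted p 5.82e-13 and 1.17e-12). Irf7, the transcription factor that amplifies interferon production, read 4.68, 3.83 and 5.76 CPM in the A libraries, 4.98, 5.87 and 5.27 in the B libraries and 61.02, 46.8 and 48.1 in the C libraries, log2 3.45 and 3.27. Each of these 4 kept its call with all 15 libraries.

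Other antiviral effectors were higher as well. Oas2 and Oas3 make the activator of RNase L. Oas2 read 0.185, 0.0673 and 0.59 CPM in the A libraries, 0.378, 0.514 and 0.402 in the B libraries and 10.2, 11.6 and 12.3 in the C libraries. Oas3 read 3.599, 6.39 and 5.31 CPM in the A libraries, 5.99, 6.82 and 5.55 in the B libraries and 48.0002, 38.4 and 45.8 in the C libraries. Mx1, a GTPase against RNA viruses, read 0.8, 1.28 and 3.54 CPM in the A libraries, 1.83, 1.54 and 1.73 in the B libraries and 13.7, 12.2 and 19.02 in the C libraries. The RNA sensors Ddx58 (RIG-I) and Ifih1 (MDA5) rose by 1.34 and 1.64 and by 2.26 and 1.13 on the log2 scale against A and B, and the sensor Zbp1 by 1.73 and 1.44. Ly6a (Sca-1), the most abundant gene of the list in C, read 182, 182 and 195 CPM in the A libraries, 72.6, 91.6 and 83.4 in the B libraries and 802, 738 and 649 in the C libraries. Reads of the Oas family and other close paralogs may be shared between genes.

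Irf9 and Stat2, which carry the interferon signal to the nucleus, moved less. Irf9 read 36.9, 42.4 and 43.8 CPM in the A libraries, 34.9, 38.7 and 33.2 in the B libraries and 81.9, 74.1 and 76.9 in the C libraries, log2 0.92 and 1.12. Stat2 changed by 0.46 and 0.46. Both passed the test. The members that did not pass were Ifit2, Ifit3, Oas1g and Ifi204. Ifit2 read 3.38, 3.70 and 4.32 CPM in the A libraries, 1.39, 1.98 and 1.61 in the B libraries and 2.39, 4.67 and 5.34 in the C libraries and exceeded only B. Ifit3 had 0 counts in A and was at least 18.6-fold higher in C, but its adjusted p against B was 0.11.

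**Figure D4:**
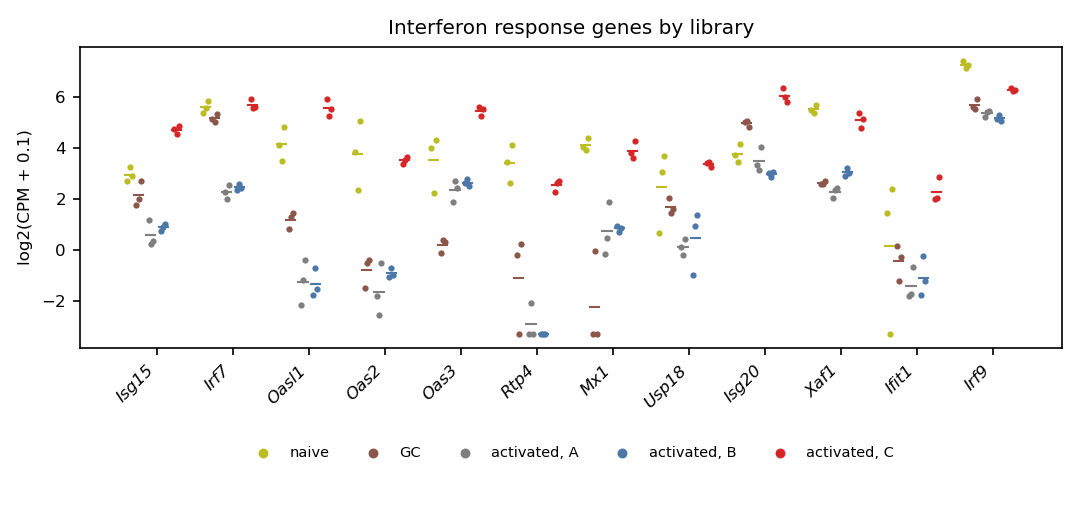
CPM on a log2 scale (0.1 added) of 12 interferon response genes in each of the 15 libraries, with points for libraries and bars for means of the 3 libraries of a group. Red C points lie above the A and B points for every gene shown, and near the naive points for Irf7 and Mx1.

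Naive cells gave a reference level for the list. The mean of C exceeded the naive mean for 18 of the 35 genes, while the mean of A and B together was below the naive mean for 33. Over all 15727 genes tested these counts were 8856 and 6740, so the first is near the share over all genes. Irf7 was at 48.4 ± 8.06 CPM in naive cells and 51.96 ± 7.88 in C and Irf9 at 154 ± 15.9 and 77.6 ± 3.97. Oas3 was at 13.3 ± 7.74 CPM in naive cells and 44.1 ± 5.04 in C, and Ly6a at 239.6 ± 69.1 and 729.6 ± 77.03. Naive and GC levels are set on a scaling over all 15 libraries, which moved C means by at most 1.04%.

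Transcripts of the interferons themselves were close to 0. Over the 3 C libraries Ifnb1 had 2 counts and Ifng 6, and A and B had 0 of either. Ifna2 and Ifna4 had 6 and 4 counts over A and 0 in C. Receptor genes were not called higher in C against both letters. Ifnar1 was at 78.38 CPM in C, 78.97 in A and 101.8 in B, and it passed as lower against B only (adjusted p 0.000178). Ifnar2 was at 22.24, 29.48 and 34.76 CPM, lower in C than in A (log2 -0.42, adjusted p 0.0251) and in B (-0.66, 0.000375). Ifngr1, for type II interferon, was also lower than in A (log2 -0.61, adjusted p 8.99e-05) and in B (-0.32, 0.0226). These genes were chosen after the list's values were seen.

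Among promoters of the interferon list, the core of the ISRE, searched as GAAANNGAAA on both strands, was frequent. Of the 31 genes called higher, 20 had a RefSeq promoter and 12 of them a match (60%), against 3.75% of tested genes with a promoter and 3.99% of all genes in the table. This list too was drawn up by function, so its share describes the list and is no test of C. In the other genes called higher the share was 7.75% (49 of 632), and in genes called lower it was 3.48% (24 of 690). Sites are shown for 5 genes, 5′ to 3′ on the gene's strand, with matches in capitals, to let the repeated spacing be seen.
Isg15: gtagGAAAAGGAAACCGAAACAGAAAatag
Oas1a: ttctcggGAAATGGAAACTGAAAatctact
Oas3: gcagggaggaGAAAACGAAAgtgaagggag
Ifit1: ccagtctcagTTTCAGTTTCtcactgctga
Rsad2: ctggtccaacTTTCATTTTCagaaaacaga
In Isg15 3 matches overlap and in Oas1a 2, and Ifit1 and Rsad2 carry the reverse complement. The stretches are chr4:156200871-156200900, minus (Isg15, first match 78 bases before the start), chr5:120907523-120907552, minus (Oas1a, 20 bases before), chr5:120777715-120777744, minus (Oas3, 75 bases before), chr19:34640794-34640823, plus (Ifit1, 85 bases before, with another match 104 bases before) and chr12:26456553-26456582, minus (Rsad2, 120 bases before).

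Genes of mature B cells were lower in C in part. Of 32 follicular B cell genes tested, 10 fell against both letters (31.25%) and 1 rose (3.125%), against 5.6% and 6.52% of all genes. Their median log2 fold change was -0.23. Ccr7 (chr11:99144196-99155077, minus strand), the receptor that guides B cells to the T cell zone, read 92.99, 87.1 and 92.1 CPM in the A libraries, 86.2, 121 and 95.3 in the B libraries and 16.1, 24.3 and 29.95 in the C libraries. The C libraries lay below the 6 others, which the rule for the largest decreases required of it. The log2 fold changes were -1.97 ± 0.15 and -2.11 ± 0.15 (adjusted p 4.50e-07 and 1.51e-07). Cd72, an inhibitory coreceptor, read 57.6, 48.2 and 68.03 CPM in the A libraries, 114, 118 and 126 in the B libraries and 29.5, 24.6 and 29.98 in the C libraries, log2 -1.04 and -2.10. Fcmr, the IgM Fc receptor, read 109, 108 and 95.3 CPM in the A libraries, 89.2, 113 and 64.2 in the B libraries and 39.3, 34.1 and 31.7 in the C libraries, log2 -1.57 and -1.32. Bcl6, the repressor that maintains germinal centre cells, read 39.5, 45.2 and 51.2 CPM in the A libraries, 37.7, 40.98 and 39.97 in the B libraries and 18.7, 23.7 and 21.3 in the C libraries, log2 -1.09 and -0.90. Fcer2a (CD23, the low-affinity IgE receptor) stood apart from A more than from B, at 958, 882 and 974 CPM in the A libraries, 181, 179 and 181 in the B libraries and 149, 154 and 158 in the C libraries, and its call against B was lost with all 15 libraries (adjusted p 0.602). Cd79b, Spib, Cd37 and Ighd also fell, by 0.24 to 0.95 on the log2 scale. The fit with all 15 libraries called 5 of the 32 lower.

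Other Blimp-1 targets and identity factors did not separate C from both letters. Pax5 was 449, 328 and 347 CPM in A, B and C, lower than in A (adjusted p 2.68e-05) and not passing against B (0.341). Ciita, the activator of class II genes, was 247, 226 and 219 CPM, with adjusted p of 0.0372 and 0.593. Bach2 passed against B only (log2 0.20 and -1.08), and Cr2 against neither (-0.35 and 0.53). Of 23 germinal centre genes tested, 2 rose (Mef2b and Nuggc) and 4 fell (Bcl6, Fas, Cd83 and Basp1). These were 8.696% and 17.39%, against 6.52% and 5.6% of all genes tested, so the rise was near the share over all genes. Nuggc rested on few counts, with 2 over the B libraries, a ratio of 131 (95% counting interval 36.4 to 1084), and lost its call in DESeq2. Of the 23, 1 was called (lower) with all 15 libraries.

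Genes of the NF-kB, class II and IL-4 lists were lower in C in part. Of 28 NF-kB subunits and targets, 10 fell (35.71%, against 5.6% of all genes) and none rose, with a median log2 fold change of -0.30. Nfkb2 read 291, 297 and 323 CPM in the A libraries, 393, 436 and 411 in the B libraries and 170.00, 181 and 174 in the C libraries, log2 -0.79 and -1.24. Traf1, a target of CD40 signalling, read 321, 327 and 349 CPM in the A libraries, 433, 459 and 452 in the B libraries and 171, 189.7 and 198 in the C libraries, log2 -0.84 and -1.27. The C libraries were the lowest for both. Nfkbia, the inhibitor IκBα, fell by 0.22 against A and by 1.34 against B. Tnf did not hold its call without single libraries of A, B or C (adjusted p up to 0.164). Of the 28, 3 were called with all 15 libraries. Of 22 class II and costimulation genes 5 fell (22.73%, against 5.6% of all genes) and none rose. Among the 5 were H2-DMa (log2 -0.71 and -0.47), H2-Oa (-1.02 and -0.37), Cd40 (-0.45 and -0.81) and Cd83 (-0.77 and -0.35). No gene of the 22 was called with all 15 libraries. Of 21 IL-4 and STAT6 response genes 6 fell (28.57%) and 1, Ighg1, rose (4.762%), against 5.6% and 6.52% of all genes. In the fit with all 15 libraries 1 of the 21 was called. Nfil3, a transcription factor induced by IL-4, read 596, 602 and 599.9 CPM in the A libraries, 557, 573 and 533 in the B libraries and 404, 421 and 408 in the C libraries. Myb, another transcription factor, read 70.1, 71.1 and 82.5 CPM in the A libraries, 24.01, 22.5 and 30.1 in the B libraries and 14.9, 15.8 and 17.5 in the C libraries. Il4ra, the receptor chain, was 1847, 1514 and 1482 CPM and passed against A only (adjusted p 6.94e-05 and 0.721).

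Part of the survival and stress genes were lower too. Of 26 p53 targets tested, 8 fell in C (30.77%, against 5.6% of all genes) and none rose. Cdkn1a (p21) read 198, 182 and 188 CPM in the A libraries, 205, 199.97 and 199 in the B libraries and 115, 108 and 127 in the C libraries, log2 -0.70 and -0.79. Fas, a death receptor, read 89.8, 89.5 and 103 CPM in the A libraries, 74.2, 76.4 and 91.2 in the B libraries and 34.02, 45.5 and 47.7 in the C libraries, log2 -1.16 and -0.93. Only 1 p53 target was called with all 15 libraries, and Cdkn1a and Fas were not. Of 16 BCL2 family genes, Bcl2, Bcl2a1b, Bbc3 and Bax fell (25%) and Bcl2l11 (BIM) rose (6.25%, near the 6.52% of all genes). Bcl2 read 46.6, 39.7 and 39.5 CPM in the A libraries, 39.1, 46.7 and 42.1 in the B libraries and 24.4, 20.5 and 24.3 in the C libraries, log2 -0.86 and -0.89, with C below all others. Bax and Bcl2a1b lost their calls without the A library titled LPS (adjusted p 0.197 and 0.148), which left 2 of the 4. No BCL2 family gene was called with all 15 libraries. Of 31 immediate early genes 5 fell (16.13%, against 5.6% of all genes), Egr2 most (log2 -0.77 and -0.71), and none rose. Without the C library titled CD40, 1 was called. Without any 1 of the other libraries 3 or 4 were called lower, and none was with all 15 libraries.

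A minority of growth and division genes were higher in C. Of 43 ribosome biogenesis and MYC target genes 17 rose (39.53%, against 6.52% of all genes) and 1, Mxi1, a MYC antagonist, fell. Their median log2 fold change was 0.19. Without single libraries 11 to 16 rose (13 without the C library titled CD40, 11 without the C library titled LPS or the B library titled CpG). Srm (spermidine synthase) read 108, 99.5 and 104 CPM in the A libraries, 131, 117 and 113 in the B libraries and 190.2, 152 and 149 in the C libraries, log2 0.65 and 0.44. Myc itself was 261, 146 and 185 CPM, lower than in A and higher than in B. Cytosolic ribosomal protein genes took a smaller share of counts in C, 11.2% ± 0.762 against 12.5% ± 0.784 in A and 16.2% ± 0.257 in B, with exact permutation p of 0.0741 (the smallest possible) within stimulus and 0.0476 without regard to it. Of 52 G2/M genes 10 rose (19.23%) and of 46 S phase genes 5 (10.87%), against 6.52% over all genes tested. The S phase share was little above that of all genes. None was lower, and the medians were 0.18 and 0.19. The S phase count was 3 without the C library titled CD40 or the A library titled CD40 or LPS, and the G2/M count was 8 without the C library titled CD40 and 6 without the one titled LPS. Ccnb1 (cyclin B1) read 87.1, 98.5 and 79.2 CPM in the A libraries, 101, 93.4 and 102 in the B libraries and 146, 111 and 132 in the C libraries. Cdc20, an activator of the anaphase-promoting complex, read 108, 124 and 90.4 CPM in the A libraries, 96.6, 97.2 and 95.7 in the B libraries and 171, 139 and 132 in the C libraries. C was highest for both, by less than 2-fold on average. No gene of these 3 lists was called with all 15 libraries. Of 28 amino acid uptake and serine pathway genes 6 rose (21.43%, against 6.52% of all genes), among them Slc7a5 (log2 0.36 and 1.10), and Sesn2 fell. Without the C library titled CD40 or the A library titled LPS 3 rose, and with all 15 libraries none did.

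Glycolysis and hypoxia genes were lower, chiefly against B. Of 36 tested, 12 fell (33.33%, against 5.6% of all genes) and 1, Slc16a1 (the lactate carrier MCT1), rose. Median log2 fold changes were -0.16 against A and -0.81 against B. Without the C library titled CD40, 10 fell and none rose. Between the other letters, 30 of the 36 were lower in A than in B and 3 higher. Slc2a3 (the glucose carrier GLUT3) read 54.1, 77.6 and 56.01 CPM in the A libraries, 102, 106 and 102 in the B libraries and 30.7, 48.8 and 34.2 in the C libraries. P4ha1, a hypoxia-induced prolyl hydroxylase, read 125, 112 and 115 CPM in the A libraries, 160.1, 187 and 181 in the B libraries and 73.9, 91.5 and 83.9 in the C libraries. Both lay lowest in C. Of the whole list 2 genes had a positive log2 fold change. No gene of the list was called with all 15 libraries.

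Receptors of innate signals, cytokines and homing changed in few members. Tlr4, the LPS receptor, read 0.984, 1.28 and 0.721 CPM in the A libraries, 1.45, 1.72 and 2.09 in the B libraries and 7.63, 3.75 and 4.85 in the C libraries, log2 2.42 ± 0.41 and 1.59 ± 0.40, at levels below 10 CPM. Tlr7, Cd180 and Irf7 also rose, as did the adaptor Ticam1 (TRIF), while Unc93b1, Ticam2 and Slc15a4 fell. Of the 26 genes tested 19.23% were higher and 11.54% lower, against 6.52% and 5.6% of all genes. The count of higher genes was 3 without the A library titled LPS, and with all 15 libraries 1 was higher and none lower. Of 24 cytokines and chemokines tested, 4 fell (16.67%) and 1, Il10, rose (4.167%), against 5.6% and 6.52% of all genes. No gene of that list was called with all 15 libraries. Il10 read 0 CPM in all 3 A libraries, 0.945, 1.76 and 2.01 in the B libraries and 3.62, 6.15 and 6.28 in the C libraries. The rise was at least 165-fold against A, by the floor of 3 counts, and log2 1.79 ± 0.41 against B. Il10 lost its call with all 15 libraries (adjusted p 0.581), as did Tlr4 (0.068). Of 27 homing receptors 7 rose (25.93%, against 6.52% of all genes), among them the integrin subunits Itgal, Itga4, Itgb2 and Itgb7, and Ccr7 fell. The count was 4 without the A library titled CpG or LPS and 3 with all 15 libraries, where Itga4 was not called. Itgal (LFA-1 alpha) read 129, 125 and 143 CPM in the A libraries, 53.98, 59.3 and 59.1 in the B libraries and 242, 209.8 and 217 in the C libraries. Itga4 read 18.7, 16.5 and 10.5 CPM in the A libraries, 6.71, 5.503 and 6.76 in the B libraries and 37.8, 39.2 and 35.8 in the C libraries. Itga4 and its partner Itgb7 form a gut homing integrin, and Itgb7 differed by 0.50 and 0.73 on the log2 scale.

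Markers of marginal zone and B-1 B cells were higher in 5 of 18 members (27.78%, against 6.52% of all genes) and lower in none. Their summed level was 2113 to 2410 CPM in C against 1367 to 1518 in A and B. Mzb1 belongs to this list and to the plasma cell list, and alone makes up more than 1400 CPM of the sum in each C library. Plac8 read 6.89, 8.71 and 7.47 CPM in the A libraries, 25.5, 32.4 and 26.2 in the B libraries and 98.8, 87.5 and 87.4 in the C libraries, log2 3.58 and 1.71. Spn (CD43) read 18.1, 18.1 and 22.01 CPM in the A libraries, 20.4, 22.9 and 25.1 in the B libraries and 46.999, 52.98 and 45.6 in the C libraries, log2 1.33 and 1.09. The repressor Zbtb32 read 2.98, 4.98 and 3.996 CPM in the A libraries, 53.8, 53.8 and 47.4 in the B libraries and 95.8, 83.01 and 83.1 in the C libraries, with A far below both other letters. Bhlhe41 read 36.4, 31.5 and 28.8 CPM in the A libraries, 15.7, 16.5 and 17.03 in the B libraries and 59.2, 51.8 and 47.4 in the C libraries. C was highest in every library for each of these genes. With all 15 libraries 2 of the list were called, and Spn, Zbtb32 and Bhlhe41 were not. The part of such cells in the other results was not tested.

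**Figure D5:**
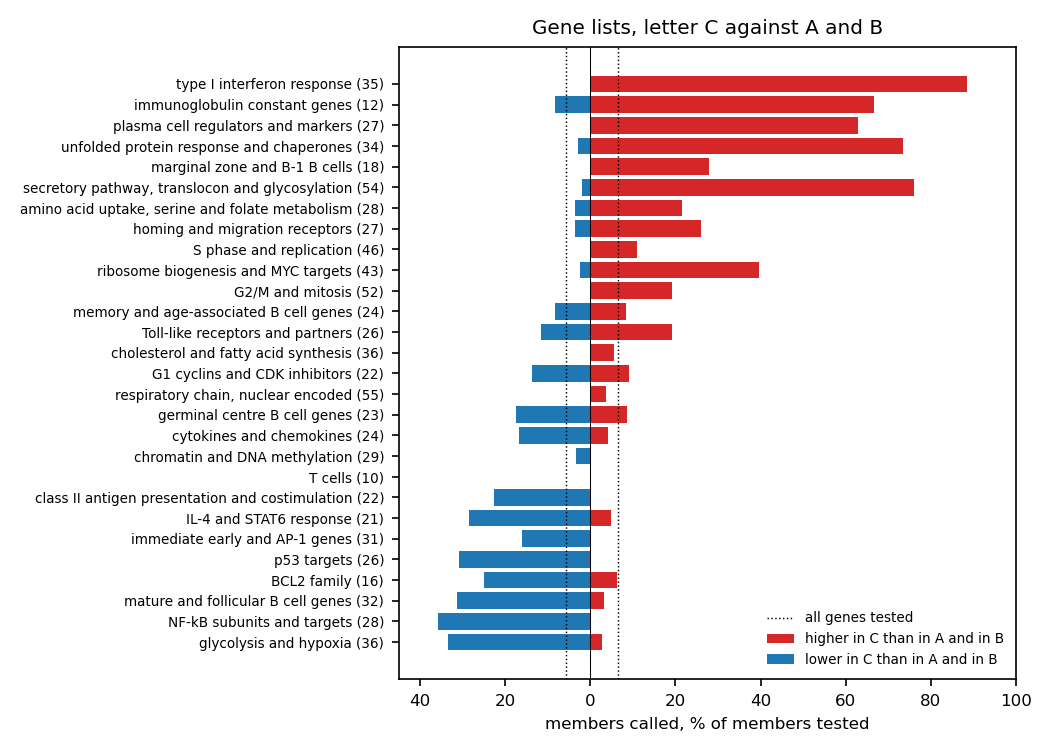
Percentage of tested members of each gene list (number tested in parentheses) that were higher in C than in both A and B (red, right) or lower than both (blue, left), for lists with 10 or more members tested, ordered by median log2 fold change. Dotted lines mark the percentages over all genes tested, 6.52% higher and 5.6% lower. Interferon, secretory pathway, unfolded protein response, immunoglobulin and plasma cell lists reach farthest to the right, and NF-kB and glycolysis lists farthest to the left.

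By the rule for the largest changes, 12 protein-coding genes were named in each direction, and many belong to no list. Among the higher genes, Pik3cg, the catalytic subunit of PI3-kinase γ, read 2.83, 2.29 and 2.36 CPM in the A libraries, 2.21, 2.75 and 1.77 in the B libraries and 36.02, 36.7 and 23.3 in the C libraries, log2 3.65 and 3.82. Naive cells held 88.2 ± 26.7 CPM of it and GC cells 121 ± 9.95. Tg, which encodes thyroglobulin, read 2.15, 2.83 and 1.77 CPM in the A libraries, 1.86, 1.61 and 1.49 in the B libraries and 31.9, 33.3 and 25.9 in the C libraries, log2 3.76 and 4.19, and both genes were called with all 15 libraries. Cpeb3, a cytoplasmic polyadenylation element binding protein, read 0.861, 0.807 and 0.917 CPM in the A libraries, 0.567, 0.147 and 0.644 in the B libraries and 21.3, 15.9 and 11.8 in the C libraries. A4galt, the synthase of the globotriaosyl (CD77) sugar, read 0.185, 0.471 and 0.786 CPM in the A libraries, 0.189, 0.147 and 0 in the B libraries and 15.2, 9.19 and 6.69 in the C libraries. Cd36, a scavenger receptor, read 0.738, 0.538 and 0.0655 CPM in the A libraries, 0.315, 0.0734 and 0 in the B libraries and 6.39, 6.95 and 4.35 in the C libraries. C libraries lay above all others for these 5 genes, which the naming rule required, so that separation is no result. Oosp1 and Hepacam2 also rose (log2 against A and B 4.15 and 3.83 for Oosp1, 3.97 and 3.82 for Hepacam2), from under 1 CPM in A and B to means of 6.21 and 5.27 CPM. Cpeb3, A4galt, Cd36, Oosp1 and Hepacam2 were not called with all 15 libraries. A4galt and Cd36 passed the filter on low counts only because of C, where they are high. For Oosp1 and Hepacam2 that is not given here.

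The largest decreases took genes of low to moderate level. Egf, epidermal growth factor, read 20.8, 24.3 and 31.1 CPM in the A libraries, 30.3, 33.4 and 37.03 in the B libraries and 4.78, 7.35 and 7.65 in the C libraries, log2 -1.94 and -2.36. Adm, adrenomedullin, read 24.5, 27.8 and 27.8 CPM in the A libraries, 27.3, 36.1 and 31.6 in the B libraries and 6.09, 7.68 and 9.69 in the C libraries, log2 -1.78 and -2.02. Ccr4, a chemokine receptor, read 57.2, 69.1 and 56.3 CPM in the A libraries, 49.4, 66.3 and 50.995 in the B libraries and 15.8, 22.7 and 16.4 in the C libraries, log2 -1.74 and -1.60. For Ndrg2 the C library titled CD40 was the lowest of all, with 8.305, 9.08 and 9.17 CPM in the A libraries, 17.4, 17.8 and 16.98 in the B libraries and 0.693, 2.704 and 2.75 in the C libraries, and the same library was lowest for Egf, Adm, Ccr4, Epb41l4b, Vldlr, Sestd1, Tmtc4, Gprasp2, Esam and Ccr7. Aplp1 was the exception, with 5.48, 5.25 and 5.04 CPM in the A libraries, 5.86, 4.99 and 4.75 in the B libraries and 1.62, 0.799 and 1.05 in the C libraries. Egf and Ccr7 kept their calls with all 15 libraries and the other 10 did not. Of non-coding genes, Gm20559, Gm17767 and 5031425E22Rik rose (log2 against A 2.49, 1.49 and 1.02) and Gm31718 fell, with 25.96, 26.03 and 32.4 CPM in the A libraries, 35.7, 36.1 and 56.8 in the B libraries and 4.16, 8.17 and 12.6 in the C libraries. The antisense genes AC132106.1 and E130310I04Rik were also lower (log2 against A -2.79 and -1.68), but whether strand was used in counting is not given, so their reads cannot be told apart from those of the gene they overlap.

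Markers of other cell types were summed over each list. Summed T cell markers were 441.5 to 492.4 CPM in C, 430.5 to 471.6 in A and 823.6 to 843.2 in B. Of these 18 genes only 3 (Trbc1, Trbc2 and Themis) had no counts in C, and the rest were detected there. Macrophage markers summed to 91.07 to 113.2 CPM in C and 101.1 to 122.7 in A and B. Of these 17 genes 7 were at 0 in C, Csf1r, Cd14 and C1qb among them, and the rest were detected. Dendritic cell markers summed to 215.1 to 230.8 CPM in C, between A (121.0 to 136.6) and B (423.7 to 481.7). Of these 11 genes 5 were at 0 in C, Siglech and Clec9a among them, and the rest were detected. Granulocyte markers summed to 20.19 to 23.26 CPM in C, 6.763 to 8.847 in A and 24.5 to 31.83 in B. Of these 17 genes 12 were at 0 in C, S100a8 and S100a9 among them, and 9 in all 9 libraries. Erythroid markers summed to 184.3 to 192.9 CPM in C, 282.6 to 310.5 in A and 197.7 to 231.3 in B. Hba-a1 was among 3 erythroid genes at 0 in all 9 libraries. Megakaryocyte markers summed to 2.213 to 3.662 CPM in C, 4.105 to 6.029 in A and 7.117 to 9.233 in B. Of these 8 genes 3 were at 0 in C, Ppbp among them. Of the lists for T cells, NK cells, macrophages, dendritic cells, granulocytes, erythroid cells, megakaryocytes and stroma, Bst2 and Prg2 rose and Zbtb46 and Itga2b fell. Prg2 and Itga2b lost their calls without single libraries. Bst2 is also an interferon response gene. The part of other cells in the results was not tested.

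Whether the difference between C and the other letters varied with the titled stimulus was tested with terms that each rest on 1 C library. A term for C within 1 stimulus was called in 5 genes for CD40 (0.0318% of genes tested), 1 for CpG (0.00636%) and 5 for LPS (0.0318%), with 3 residual degrees of freedom. At an unadjusted p under 0.05 there were 1886, 1008 and 807 genes. The counts moved with the processing, to 114, 27 and 16 with no filter on low counts, so little can be read from their size. For LPS all 5 genes were immunoglobulin genes with a smaller excess in C than under the other titles. Ighm was at 25518, 29511 and 16046 CPM in the C libraries, lowest in the one titled LPS, which was still more than 3 times above every A and B library. The median difference of interferon list genes was 2.60 (CD40), 1.83 (CpG) and 2.07 (LPS) on the log2 scale, and that of plasma cell genes 1.12, 1.17 and 0.70.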

How the data were processed

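RNA sequencing libraries (directional, poly(A)-selected) of 9 activated, 3 naive and 3 GC B cell samples were read from the authors' deposited table of raw counts per gene. Per the submitters' processing notes, the tools were STAR 2.7.10a, featureCounts 2.0.6 and DESeq2 with build mm10 (GRCm38). How strand and multi-mapping reads were handled is not given in the sources used here. Of 54838 gene IDs, 54809 were named with GENCODE M21. Samples were grouped by title.

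Counts of the 9 activated libraries were fitted with edgeR 4.0.16 (quasi-likelihood, robust, TMM scaling, filterByExpr, letter plus titled stimulus, 4 residual degrees of freedom), with Benjamini-Hochberg adjustment over 15727 genes. A gene was called at an adjusted p under 0.05 against A and against B with the same sign. Totals of 25397624 to 36272197 counts set the counting precision, and intervals and floors (3 counts) cover counting error only. The fit was also run on simulated counts as a check of the code, and the outcome is not reported here. Same-titled libraries of different letters had deviations correlated at 0.000362 to 0.0644, so the stimulus was kept as a block by design and not as a pairing. R 4.3.3, limma 3.58.1, DESeq2 1.42.0 and Python 3.11.15 were used, with 19 alternatives. All 37 mitochondrial genes held 0 counts.

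The rule named the 12 protein-coding genes with the largest change in each direction, the plasma cell and immunoglobulin constant genes, up to 4 called genes per list, 10 set genes and the 3 largest V and non-coding genes per direction. Some genes within the rule are not reported here. Other genes named were chosen after their values were seen. Members and lists were chosen with earlier results of these data known. Sequences are from RefSeq promoters (GRCm38.p6).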

Additional observations from a re-analysis of the deposited data

Results flagged for a closer look

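In 11 genes the difference between C and the other letters varied with the titled stimulus at an adjusted p under 0.05 (edgeR, quasi-likelihood, 3 residual degrees of freedom). Each C term rests on 1 library. For CD40 the fitted log2 difference was -8.665 for Rab13, -8.606 for Sfmbt2 and -8.905 for Zfp541, whose C library titled CD40 had 0 counts while the other C libraries held 1.41 to 2.26 CPM, so these folds depend on the prior count and are no bounds. It was -3.145 for Rpl12-ps1 (0.771 CPM against 5.99 and 5.29 in the other C libraries) and -1.028 for Rps15a-ps7 (35.4 against 65.6 and 70.9), both pseudogenes of ribosomal proteins that can share reads with their parent genes. For CpG it was 0.8018 for the V gene Igkv6-32, with 320 CPM against 191 and 180 in the C libraries titled CD40 and LPS. For LPS it was -0.6022 for Ighm, -0.6664 for Igkc, -0.7405 for Igkv1-117, -0.9073 for Igkv14-111 and -0.8588 for Iglv3. Those 5 immunoglobulin genes were lowest in the C library titled LPS, which had an immunoglobulin share of 5.059% against 7.188% and 8.002%. The part of that share in these differences was not tested.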

How the results depend on the processing

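Of 141 named genes called, 115 kept their calls in every fit without 1 library and 114 under every alternative other than the fit with all 15 libraries. In the fit with all 15 libraries, 99 of the 141 lost their calls. None of the 141 changed direction. Cd28, not called, turned from 0.51 to -0.4014 on the log2 scale without the C library titled CpG and reached 0.9402 without the one titled CD40. Medians of lists near 0 also turned: that of the germinal centre genes went from -0.02 to 0.06 and that of the NK cell genes from 0.67 to -0.05 without the C library titled CD40. Without the titled stimulus as replicate block, 949 genes were higher in C than in A and in B and 776 lower. Leaving out 1 library gave 825 to 957 higher and 666 to 830 lower. With all 15 libraries the counts were 186 higher and 45 lower against both letters, 415 and 186 against the mean of A and B, 274 and 188 against A, 519 and 312 against B, and 369 and 316 for A against B. The naive and GC libraries then shared the estimate of spread, and the cause of the drop was not tested. With at least 2-fold change required, the counts were 351 and 115, 586 and 353, 578 and 426, 709 and 538, and 555 and 521 in the same order. The immunoglobulin share difference of 5.212 and the ribosomal protein share difference of -3.181 percentage points passed 0.05 only when letters were permuted without regard to stimulus. Genes whose C difference varied with stimulus numbered, for CD40, 9 with upper-quartile factors, 114 with no low-count filter, 1 with at least 1 CPM in 3 libraries, 19 without immunoglobulin genes, 3 in limma-voom and 12 in DESeq2. For CpG they numbered 27 with no filter, 0 without immunoglobulin genes, 11 in limma-voom and 4 in DESeq2, and for LPS 16, 0, 15 and 13. The genes called in edgeR for CpG and LPS were all immunoglobulin genes, so these could not be called once removed. Their removal also changes the scaling and the estimate of spread, and for CD40 the count went from 5 to 19. The cause of the 0 counts was not tested. With all genes kept, 1008 (CpG) and 807 (LPS) genes had an unadjusted p under 0.05 in edgeR. That test was not run without single libraries, without the block, with all 15 libraries or with a 2-fold minimum, since each C term rests on 1 library or needs the block. Depth limits genes of few counts, such as Nuggc and Chst1.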
